A study of Mus musculus with 4 samples.

Results

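Alternative activation is the state that macrophages take up under the cytokines IL-4 and IL-13. Both act through the alpha chain of the IL-4 receptor and the transcription factor STAT6, and the state is known in mice by arginase-1, the mannose receptor, galactose-type lectins and the eosinophil attractant Ccl24. Cbr2, a carbonyl reductase, and Folr2, the folate receptor beta, are often read beside these genes because tissue-resident macrophages carry them too. Described here are 8 genes of this kind among the 22026 symbols in the tables: the receptor chain Il4ra, the enzymes Arg1 and Cbr2, the lectins Mrc1, Mgl2 and Clec10a, the chemokine Ccl24 and the folate receptor Folr2. They were found by their symbols, and were chosen by their RBP-J KO and WT values in these libraries as well as by their known roles. Differences between RBP-J KO and WT are therefore a description of these genes and carry no test.

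The libraries were 2 of RBP-J KO and 2 of WT bone marrow derived macrophages, all from C57BL/6 mice aged 8 weeks. RBP-J KO mice carried the genotype Rbpj f/f;LysM cre, in which Cre from the lysozyme M locus deletes Rbpj in myeloid cells, and the WT mice are labelled only as wild-type controls. RBP-J, the product of Rbpj, is the factor through which Notch receptors act on their target genes, and the series compares mRNA levels with and without it. Marrow cells were grown for 3 days in CMG14-12 supernatant with the equivalent of 20 ng/ml M-CSF, the growth factor of macrophages. No label names IL-4 or IL-13 as an addition, and Il4 and Il13 were listed at 0 in all 4 libraries. Values, from 1 table per library, were taken to be FPKM, that is, fragments scaled to transcript length and library size. No header names the unit, and the absolute scale is unclear. The read depth behind the values is unknown, and no label says which mice or cultures the replicates came from.

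Libraries of the same replicate number resembled each other in several ways, so RBP-J KO and WT were compared inside each number: pair 1 is RBP-J KO replicate 1 with WT replicate 1, and pair 2 is RBP-J KO replicate 2 with WT replicate 2. Ddx3y, a Y-linked gene, was listed above 0 in the replicate 1 libraries alone and Xist in the replicate 2 libraries alone, so the pairs also differ in sex, and the replicates of each group came from different mice. Rbpj was at 51.5 and 77 FPKM in RBP-J KO replicates 1 and 2, against 355 and 573 FPKM in WT replicates 1 and 2. Lyz2, the gene at the site of LysM cre, was at 94.3 and 115 FPKM in RBP-J KO and at 218 and 192 FPKM in WT. All 10 macrophage markers looked at were above 0 in every library. Their summed levels were 30821 and 21058 FPKM in RBP-J KO and 26505 and 23305 FPKM in WT. Singly, 3 were higher and 4 lower in both pairs, against 25.1% and 34.1% of all genes tested. By at least 1.5-fold, 0 were higher and 2 lower, against 3.86% and 3.63%. Those 2 were Lyz2 and Cd14, the latter at 764 and 800 FPKM in RBP-J KO and at 1715 and 1570 FPKM in WT. Neutrophil markers, of which 11 of 12 had an entry, summed to 8434 and 1173 FPKM in RBP-J KO and to 7088 and 361 FPKM in WT. The 10 dendritic cell markers summed to 202 and 48 FPKM in RBP-J KO and to 42.2 and 69.2 FPKM in WT, with the defining marker Zbtb46 at 0 in all but RBP-J KO replicate 1. The other 5 marker lists were for eosinophils with basophils and mast cells, B cells, T and NK cells, erythroid cells with megakaryocytes, and stromal with endothelial cells. Each summed to at most 186 FPKM in RBP-J KO and 79.2 FPKM in WT. In pair 1 all 5 sums were higher in RBP-J KO. The same held in pair 2, except for T and NK cells, at 0 in both libraries. Markers of eosinophils, basophils and mast cells summed to 186 and 45.5 FPKM in RBP-J KO and to 79.2 and 10.4 FPKM in WT. In bulk RNA of this kind, fewer cells of a type and less RNA per cell cannot be told apart.

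Cbr2 and Folr2 were several-fold lower in both RBP-J KO libraries, whereas the groups overlapped for Il4ra. Mrc1 was lower by a smaller margin in both pairs, Arg1, Clec10a and Ccl24 differed mainly in pair 1, and Mgl2 hardly differed. Of the 8 genes, 3 were at least 1.5-fold lower in RBP-J KO in both pairs and 0 at least 1.5-fold higher, where 3.63% and 3.86% of the 11851 genes tested were. Counted without a size limit, 5 were lower in both pairs and 1 higher, against 34.1% and 25.1% of all genes tested. Nothing is read from these shares, since the same contrast entered the choice of genes. In a limma fit across all 11851 genes, 0 genes (0%) passed an adjusted p of 0.05 with Benjamini-Hochberg adjustment, and 524 had an unadjusted p under 0.05. The smallest adjusted p of any gene in this limma fit was 0.294. These p-values cover the spread among 4 libraries, part of which may be technical.

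**Figure D1:**
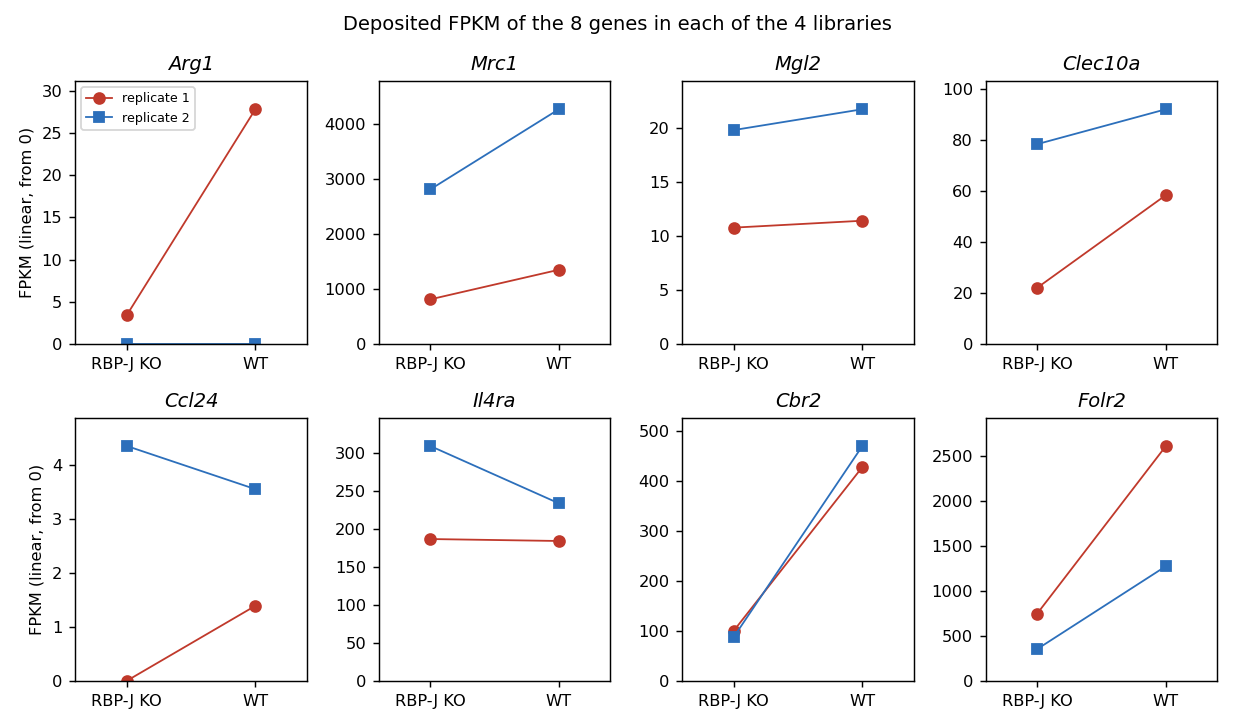
FPKM (vertical axis, linear and starting at 0) of each of the 8 genes in RBP-J KO and WT, with lines joining the libraries of 1 replicate number. The lines of Cbr2 lie close together, with 100.2 FPKM in RBP-J KO replicate 1 and 428 FPKM in WT replicate 1, while those of Mrc1 and Folr2 are set apart by replicate number.

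Cbr2 encodes an NADPH-dependent carbonyl reductase of the short-chain dehydrogenase family, known in mice from lung and from resident macrophages. It was at 100.2 and 87.7 FPKM in RBP-J KO and at 428 and 471 FPKM in WT. Both RBP-J KO libraries lay far below both WT libraries, and the libraries of each group lay close together (94 ± 8.86 FPKM in RBP-J KO and 449 ± 29.8 FPKM in WT; SD, n = 2). The level in RBP-J KO was 4.27-fold lower in pair 1 and 5.37-fold lower in pair 2. Over all libraries the log2 difference of log2(FPKM + 1) was -2.25 (SE 0.19 from limma). Among the 4043 genes lower in both pairs, ranked by the smaller of their differences, Cbr2 held place 26 and Folr2 place 34. Mrc1 held place 414, Clec10a place 1450 and Mgl2 place 2920. The same differences entered the choice of genes, so these places are a description only.

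Folr2 encodes the folate receptor beta, a glycolipid-anchored protein that binds folate at the surface of myeloid cells. Its level was 749 and 354 FPKM in RBP-J KO and 2615 and 1277 FPKM in WT. The groups did not overlap, although WT replicate 2 stood closer to RBP-J KO replicate 1 than to WT replicate 1. It was 3.49-fold lower in pair 1 and 3.60-fold lower in pair 2, with a log2 difference of -1.82 over all libraries (SE 0.53). In both genotypes Folr2 was higher in replicate 1, by 2.11-fold in RBP-J KO and 2.05-fold in WT, so the SE holds this offset as well as the spread inside a pair. Leaving out a replicate 1 or 2 library of either group left the log2 difference between -2.36 (without RBP-J KO replicate 1) and -1.29 (without RBP-J KO replicate 2), with -2.34 without WT replicate 2 and -1.31 without WT replicate 1. Cbr2 and Folr2 were the 2 of the 8 genes with both RBP-J KO libraries below both WT libraries, a pattern that 18.2% of all genes tested had.

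Windows around the transcription starts of Cbr2, Folr2 and Mrc1, the genes at least 1.5-fold lower in both pairs, are shown because RBP-J acts by binding DNA. Each holds 250 bases before the start and 50 after it, read 5′ to 3′ on the gene's strand, from RefSeq on build GRCm38.p6; the deposited values were made on mm9. They were searched on both strands for TGGGAA, the core of the RBP-J motif, and for TTC and GAA parted by 4 bases, the palindrome of STAT6 type. Capitals mark matches. The Cbr2 window is chr11:120731972-120732271 (minus strand), those of Folr2 are chr7:101857141-101857440 and chr7:101845282-101845581 (minus strand), and that of Mrc1 is chr2:14229164-14229463 (plus strand).
Cbr2: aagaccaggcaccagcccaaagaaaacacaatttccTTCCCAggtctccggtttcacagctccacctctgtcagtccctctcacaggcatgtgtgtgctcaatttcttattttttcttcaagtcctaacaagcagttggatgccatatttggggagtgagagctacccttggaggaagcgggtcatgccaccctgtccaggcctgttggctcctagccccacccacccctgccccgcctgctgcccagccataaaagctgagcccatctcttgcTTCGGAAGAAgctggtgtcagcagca
Folr2, upstream start: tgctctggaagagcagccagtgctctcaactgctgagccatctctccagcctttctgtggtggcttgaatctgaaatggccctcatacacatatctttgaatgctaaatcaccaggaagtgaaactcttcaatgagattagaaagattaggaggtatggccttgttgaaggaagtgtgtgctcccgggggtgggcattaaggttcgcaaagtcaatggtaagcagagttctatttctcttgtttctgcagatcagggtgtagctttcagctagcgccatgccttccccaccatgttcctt
Folr2, downstream start: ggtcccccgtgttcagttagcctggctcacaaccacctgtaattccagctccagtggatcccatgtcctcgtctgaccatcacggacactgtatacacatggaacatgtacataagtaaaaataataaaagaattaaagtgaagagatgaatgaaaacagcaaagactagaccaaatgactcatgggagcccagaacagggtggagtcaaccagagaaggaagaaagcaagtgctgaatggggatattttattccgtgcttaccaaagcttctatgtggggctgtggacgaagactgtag
Mrc1: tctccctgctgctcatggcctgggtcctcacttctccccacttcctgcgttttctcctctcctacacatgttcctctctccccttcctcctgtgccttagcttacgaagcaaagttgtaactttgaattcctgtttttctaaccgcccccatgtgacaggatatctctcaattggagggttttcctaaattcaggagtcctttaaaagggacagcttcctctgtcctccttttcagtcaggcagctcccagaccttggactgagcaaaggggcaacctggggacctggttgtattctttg

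In the Cbr2 window TTCCCA, which is TGGGAA on the other strand, began at position -214, and a STAT6-type palindrome at position 25, where the start is position 1. Neither motif was found in the windows of Folr2 and Mrc1. A window was also at hand for Il4ra and Mgl2, again without a match, so that 1 of 6 windows held TGGGAA and 1 of 6 the palindrome. Among all 32851 windows of this length, 25.6% held TGGGAA and 6.95% the palindrome. These are matches of letters, with no measurement of binding. Arg1, Clec10a and Ccl24 had no entry.

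Il4ra encodes the chain of the IL-4 receptor that binds IL-4 and is shared with the receptor of IL-13. It was at 187 and 309 FPKM in RBP-J KO and at 184 and 234 FPKM in WT. The groups overlapped, because RBP-J KO replicate 1 lay between the WT libraries. The level in RBP-J KO was 1.01-fold that in WT in pair 1 and 1.32-fold in pair 2, and the log2 difference over all libraries was 0.21 (SE 0.31). Without RBP-J KO replicate 2 it was -0.15. The order of Cbr2 and Il4ra, both of them per-length levels, differed by genotype: Il4ra was above Cbr2 in both RBP-J KO libraries and below it in both WT libraries.

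Ratios of 2 genes inside 1 library stay the same when all values of that library are multiplied by a common factor. Quantile normalization can change them. The ratio of Cbr2 to Il4ra was 0.537 and 0.283 in RBP-J KO and 2.33 and 2.01 in WT. That of Folr2 to Il4ra was 4.01 and 1.15 in RBP-J KO and 14.2 and 5.46 in WT. Both ratios were lower in RBP-J KO in each pair, by 4.33-fold and 7.10-fold for Cbr2 and by 3.54-fold and 4.77-fold for Folr2. Relative to Mrc1, too, Cbr2 was 2.57-fold and 3.53-fold lower in the pairs and Folr2 2.10-fold and 2.37-fold lower. Inside both pairs the fold was thus smaller for Mrc1 than for Cbr2 and Folr2, which is a description and was not tested.

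**Figure D2:**
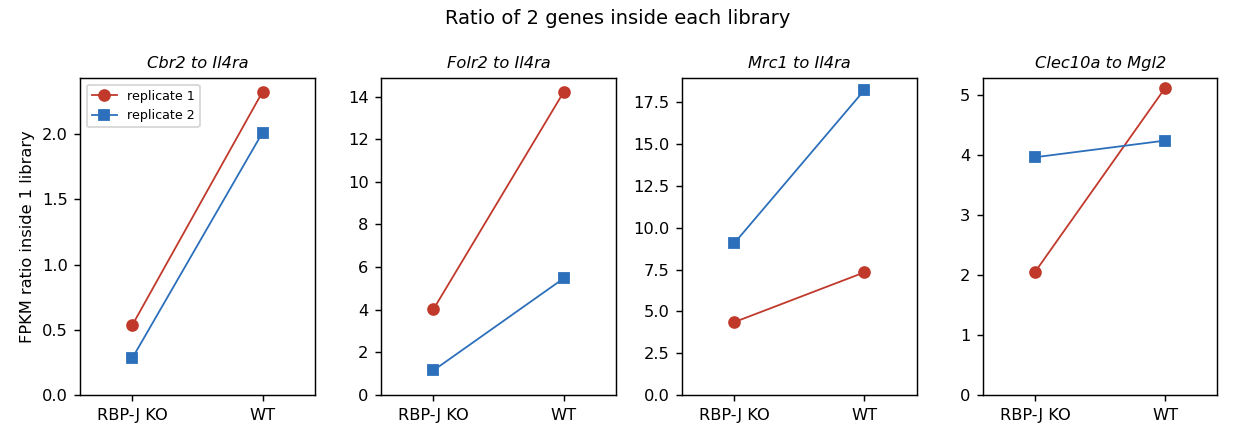
Ratio of the FPKM of 2 genes inside each library (vertical axes, linear and starting at 0) in RBP-J KO and WT, with lines joining libraries of 1 replicate number. The ratios of Cbr2, Folr2 and Mrc1 to Il4ra are lower in RBP-J KO in both pairs, whereas that of Clec10a to Mgl2 separates the genotypes in pair 1 (2.05 in RBP-J KO and 5.12 in WT) and hardly in pair 2 (3.96 and 4.24).

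Mrc1 encodes the mannose receptor, a large endocytic lectin that binds mannose-bearing glycans. It was among the most abundant of the genes tested (above 99.1% of them by mean level) and stood at 813 and 2807 FPKM in RBP-J KO and at 1351 and 4263 FPKM in WT. The groups overlapped, because both replicate 2 libraries were above both replicate 1 libraries. Inside the pairs Mrc1 was 1.66-fold and 1.52-fold lower in RBP-J KO, and over all libraries the log2 difference was -0.67 (SE 0.83). Under upper quartile scaling the difference in pair 2 was 1.45-fold and under quantile normalization 1.42-fold, so that Mrc1 was then no longer at least 1.5-fold lower in both pairs. Leaving out WT replicate 2 or RBP-J KO replicate 1 turned the direction (log2 differences of 0.16 and 0.23), and leaving out WT replicate 1 or RBP-J KO replicate 2 gave -1.50 and -1.56. These fits have no term for the replicate number, so its offset enters the difference. Mrc1 was 3.45-fold higher in replicate 2 than in replicate 1 in RBP-J KO and 3.16-fold higher in WT, an upward offset at least as large in 1.32% and 1.52% of genes tested. Sex, table layout and the level of neutrophil markers also differed between the replicate numbers and cannot be told apart here.

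Mgl2 and Clec10a encode galactose-type lectins, and both mark alternatively activated macrophages and some dendritic cells in mice. Mgl2 was at 10.8 and 19.8 FPKM in RBP-J KO and at 11.4 and 21.8 FPKM in WT. It differed by 1.06-fold in pair 1 and 1.10-fold in pair 2, and more between the replicate numbers (1.84-fold in RBP-J KO and 1.90-fold in WT). Clec10a was at 22.1 and 78.5 FPKM in RBP-J KO and at 58.5 and 92.1 FPKM in WT. RBP-J KO replicate 1 was the lowest library by a wide margin, and RBP-J KO replicate 2 lay between the WT libraries. The level in RBP-J KO was 2.64-fold lower in pair 1 and 1.17-fold lower in pair 2 (log2 difference -0.80, SE 0.66), and without RBP-J KO replicate 1 the log2 difference was 0.09.

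The tables of replicate 2 give 2 transcripts of Clec10a. One was at 46.4 FPKM in RBP-J KO and 52.6 FPKM in WT, the other at 32 FPKM in RBP-J KO and 39.5 FPKM in WT, so both were slightly lower in RBP-J KO. Both lectin genes are neighbours on chromosome 11, with 0 genes between them in the RefSeq table. Their longest open reading frames in the GENCODE M21 transcripts were 91.4% identical over 918 aligned bases, with an unbroken identical stretch of 183 bases. Reads from such stretches can be assigned to either gene, and how this was done is not given in the sources used here, so the split between Mgl2 and Clec10a is uncertain. Summed, both genes were at 32.9 and 98.3 FPKM in RBP-J KO and at 69.9 and 114 FPKM in WT, which is 2.12-fold lower in pair 1 and 1.16-fold lower in pair 2. Dendritic cell markers had a median log2 difference of 1.93 in pair 1 and 0.14 in pair 2 beside these values, and their part in the result was not tested. Of the other genes, 4 were each set beside 1 relative: Cbr2 was 69% identical to Dcxr, Folr2 73.6% to Folr1, Arg1 64.4% to Arg2 and Mrc1 56.4% to Mrc2, with identical stretches of at most 20 bases.

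Arg1 and Ccl24 were the least abundant of the 8 genes. Arg1, arginase-1, splits arginine into urea and ornithine and is a defining enzyme of alternative activation in mice. It was at 3.41 FPKM in RBP-J KO replicate 1 and at 27.8 FPKM in WT replicate 1, and listed at 0 in both replicate 2 libraries. The 8.16-fold lower level in pair 1 thus has no counterpart in pair 2, and no fold can be given there. Ccl24, eotaxin-2, attracts eosinophils and other cells that bear Ccr3. It was listed at 0 in RBP-J KO replicate 1 and at 4.35 FPKM in RBP-J KO replicate 2, against 1.39 and 3.55 FPKM in WT replicates 1 and 2. The pairs went in opposite directions, and all 4 values were close to the lower end of the genes tested.

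**Figure D3:**
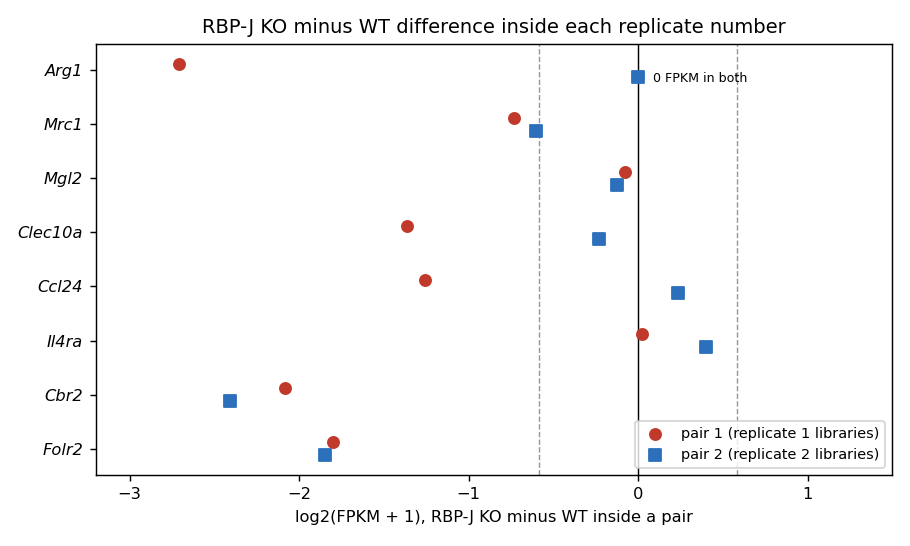
Difference of RBP-J KO minus WT in log2(FPKM + 1) (horizontal axis) for each of the 8 genes inside pair 1 (circles) and pair 2 (squares); dashed lines mark a 1.5-fold difference. Cbr2 and Folr2 lie between -2.41 and -1.80 in both pairs, while the circles of Arg1, Clec10a and Ccl24 lie well left of their squares.

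The order of the genes by level differed between the libraries. Mrc1 was highest in all libraries except WT replicate 1, where Folr2 was above it, and Clec10a held the fifth place in every library. Averaged over all 4 libraries, Mrc1 was at 2308 FPKM, Folr2 at 1249, Cbr2 at 272, Il4ra at 229, Clec10a at 62.8, Mgl2 at 15.9, Arg1 at 7.81 and Ccl24 at 2.32 FPKM. In this order the ranges of neighbours over the 4 libraries overlapped, except between Il4ra and Clec10a and between Clec10a and Mgl2. Arg1 was above Ccl24 in both replicate 1 libraries and below it in both replicate 2 libraries. It was above Mgl2 in WT replicate 1 alone (27.8 and 11.4 FPKM).

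Genes with the most similar profiles were sought by the distance between log2(FPKM + 1) values over the 4 libraries, each gene centred on its mean, among 10785 genes. Nearest to Cbr2 was Eps8, an adaptor of growth factor receptor signalling and actin, at 14.1 and 14.8 FPKM in RBP-J KO and at 65.3 and 75.1 FPKM in WT (distance 0.20), followed by Raet1c (0.28). Nearest to Folr2 were Mctp1, at 29.3 and 12.1 FPKM in RBP-J KO and 110 and 40 FPKM in WT (0.31), and Fabp3, a fatty acid binding protein (0.34). For Mrc1 these were Slc25a23 (0.15) and St6gal1 (0.18), and for Clec10a Cdkn2d (0.11) and Clstn1 (0.14). Arg1 was nearest to Fn1, which encodes fibronectin (0.39), and Slpi, a protease inhibitor (0.46). Fn1 was at 13.9 and 1.63 FPKM in RBP-J KO and at 109 and 2.15 FPKM in WT. Ccl24 was nearest to Igfbp4 (0.09) and F13a1 (0.16), Il4ra to Zbtb48 (0.06) and Tmem149 (0.09), and Mgl2 to Phpt1 (0.05) and Grhpr (0.08). Likeness over 4 libraries takes in the replicate number as much as the genotype.

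The receptor chains that pair with Il4ra were higher in RBP-J KO. Il13ra1, which forms the receptor of IL-13, was at 128 and 39.5 FPKM in RBP-J KO and at 32.8 and 22.2 FPKM in WT. Il2rg, the common gamma chain, was at 839 and 307 FPKM in RBP-J KO and at 261 and 227 FPKM in WT. For both genes RBP-J KO replicate 1 was far above the other libraries. The log2 difference was 1.93 in pair 1 and 0.80 in pair 2 for Il13ra1, and 1.68 and 0.43 for Il2rg. Beside these, the median of the dendritic cell markers was 1.93 in pair 1 and 0.14 in pair 2, and their part in the result was not tested. Stat6 was at 493 and 406 FPKM in RBP-J KO and at 512 and 410 FPKM in WT, differing by little inside either pair. Ptpn6, a phosphatase that restrains cytokine receptors, was 1.60-fold and 1.29-fold higher. In the whole list of receptor signalling genes, 10 of 14 averaged at least 1 FPKM. Of these, 7 were higher and 1 lower in both pairs, and 0 passed the limma test across all genes. Its median log2 difference was 0.28, beside -0.05 over all genes tested. Of all genes tested, 25.1% were higher and 34.1% lower in both pairs, and 3.86% and 3.63% by at least 1.5-fold. The lists were chosen with earlier results of these data known, so nothing is read from the counts in this or the later lists.

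Transcription factors of alternative activation went both ways. Klf4, which acts with STAT6 in mouse macrophages, was at 4.45 and 5.39 FPKM in RBP-J KO and at 13.2 and 27.2 FPKM in WT, lower in both pairs. Kdm6b, a histone H3K27 demethylase that IL-4 induces, was at 31.5 and 33.6 FPKM in RBP-J KO and at 9.38 and 5.73 FPKM in WT. Ppard, a fatty acid-sensing nuclear receptor, was at 78 and 89.9 FPKM in RBP-J KO and at 34.8 and 52.7 FPKM in WT, whereas its relative Pparg, at 117 and 69.9 FPKM in RBP-J KO and 103 and 57.5 FPKM in WT, overlapped between groups. Ppargc1b, a coactivator, was at 2.19 and 2.44 FPKM in RBP-J KO and at 4.14 and 3.96 FPKM in WT. Irf4 was at 7.81 and 11.5 FPKM in RBP-J KO and at 6.56 and 9.66 FPKM in WT, and Egr2 at 8.21 and 4.73 FPKM in RBP-J KO and 8.66 and 6.41 FPKM in WT. Of the 13 genes, all averaging at least 1 FPKM, 6 were higher and 3 lower in both pairs, against 25.1% and 34.1% of all genes tested. In this list 0 genes passed the test, and the median was 0.21.

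Other effectors of alternative activation differed in both directions. Of 28 genes 19 averaged at least 1 FPKM. Of these, 9 were higher and 5 lower in both pairs, against 25.1% and 34.1% of all genes tested. By at least 1.5-fold, 4 were higher and 3 lower, against 3.86% and 3.63%, and 0 passed the test. The median log2 difference was 0.57. Itgax, Batf3 and Cd209a stand both in this list and among the dendritic cell markers. Retnla and Ccl17 were listed at 0 in all 4 libraries. Chi3l3, the chitinase-like protein Ym1, was at 915 and 144 FPKM in RBP-J KO and at 630 and 36.6 FPKM in WT. This gene is also made by neutrophils and their precursors, and the median log2 difference of neutrophil markers was 0.31 in pair 1 and 1.91 in pair 2; their part in the result was not tested. Clec7a, the beta-glucan receptor dectin-1, was at 1170 and 306 FPKM in RBP-J KO and at 234 and 65.7 FPKM in WT. Fabp4, which carries fatty acids, was lower, at 32.3 and 21.4 FPKM in RBP-J KO and at 131 and 120 FPKM in WT. Cd36 was lower too, at 1571 and 3044 FPKM in RBP-J KO and at 5448 and 5231 FPKM in WT. Its level in RBP-J KO was 3.47-fold lower in pair 1 and 1.72-fold lower in pair 2. The chemokine Ccl8 was at 9.40 and 0 FPKM in RBP-J KO and at 37.9 and 6.05 FPKM in WT. Ccl22 was at 10.4 and 0.99 FPKM in RBP-J KO and at 1.91 and 0 FPKM in WT, and Pdcd1lg2 at most at 1.01 FPKM.

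Genes known from tissue macrophages, which often accompany Folr2 and Cbr2, also differed in both directions. Of 28 genes 23 averaged at least 1 FPKM. Of these, 8 were higher and 12 lower in both pairs, against 25.1% and 34.1% of all genes tested. By at least 1.5-fold, 4 were higher and 3 lower, against 3.86% and 3.63%, and 0 passed the test (median -0.36). Ccl7, a monocyte attractant, was at 55.6 and 194 FPKM in RBP-J KO and at 1945 and 346 FPKM in WT, and Pltp, which transfers phospholipids, at 300 and 202 FPKM in RBP-J KO and at 495 and 1080.0 FPKM in WT. Ms4a7 was higher, at 8605 and 4284 FPKM in RBP-J KO and at 4048 and 2205 FPKM in WT, as was Clec4n, a C-type lectin of fungal recognition, at 1219 and 1284 FPKM in RBP-J KO and at 476 and 585 FPKM in WT. Cd163, the scavenger receptor of haemoglobin, was at 4.61 and 44.4 FPKM in RBP-J KO and at 35.2 and 58.0 FPKM in WT, with RBP-J KO replicate 1 far below the rest. Lyve1 and Timd4, which define resident subsets in many tissues, were at or near 0 in every library, at most 2.07 and 1.27 FPKM.

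**Figure D4:**
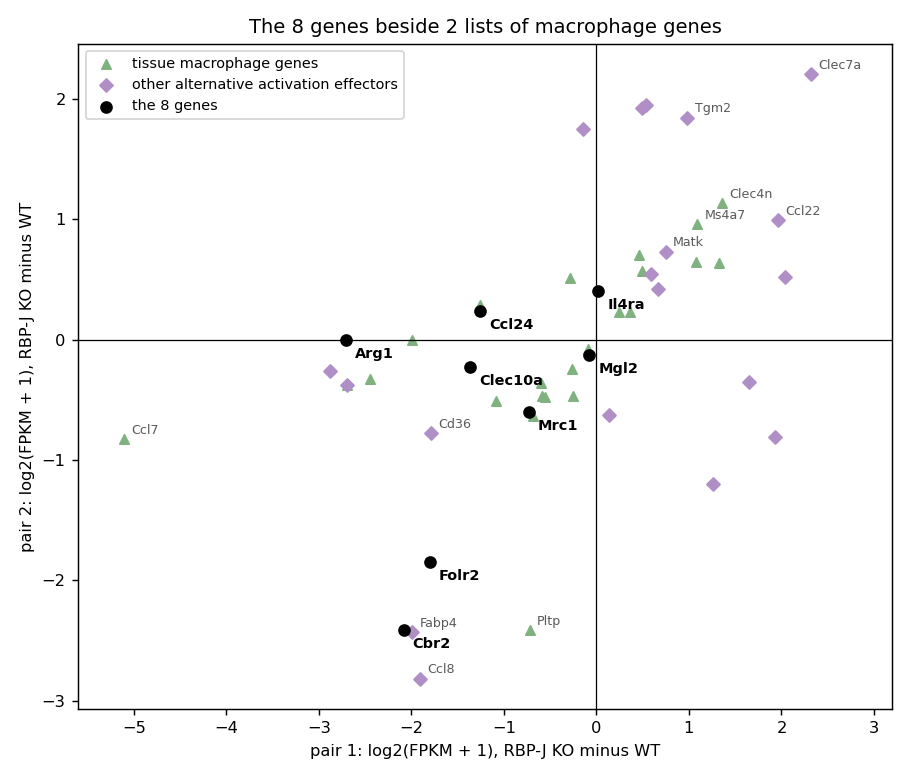
RBP-J KO minus WT difference in log2(FPKM + 1) in pair 1 (horizontal axis) and pair 2 (vertical axis) for the 8 genes (black), tissue macrophage genes (triangles) and other alternative activation effectors (diamonds). Of the list genes labelled, Fabp4, Ccl8, Cd36, Pltp and Ccl7 lie in the lower left, as do Cbr2 and Folr2. Labelled in the upper right are Clec7a, Tgm2, Clec4n, Ms4a7, Ccl22 and Matk.

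In arginine and polyamine metabolism, 16 of 19 genes averaged at least 1 FPKM. Of these, 2 were higher and 6 lower in both pairs, none by 1.5-fold in both, and 0 passed the test (median -0.22). Arg2, the mitochondrial arginase, was at 4.26 and 0 FPKM in RBP-J KO and at 4.87 and 1.74 FPKM in WT, and Nos2, which competes with arginase for arginine, was listed at 0 throughout. Slc7a2, an arginine transporter, was at 35.6 and 1.65 FPKM in RBP-J KO and at 10.6 and 2.38 FPKM in WT. Sms, spermine synthase, was at 42.1 and 51.1 FPKM in RBP-J KO and at 76.2 and 65.4 FPKM in WT.

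For folate, 16 of 18 genes averaged at least 1 FPKM. Of these, 1 was higher and 1 lower in both pairs, and 0 passed the test (median -0.07). Folr1, the folate receptor alpha, was listed at 0 in all libraries except WT replicate 2, at 1.89 FPKM. Slc19a1, the reduced folate carrier, was at 37.5 and 49 FPKM in RBP-J KO and at 40.1 and 30.3 FPKM in WT. Among carbonyl reductases and related enzymes, 15 of 16 averaged at least 1 FPKM. Of these, 2 were higher and 5 lower in both pairs, 2 of the lower ones by at least 1.5-fold, and 0 passed the test (median -0.15). Those 2 were Akr1b8, at 568 and 270 FPKM in RBP-J KO and 1792 and 461 FPKM in WT, and Dhrs3, which reduces retinal, at 497 and 692 FPKM in RBP-J KO and 785 and 1190 FPKM in WT. Cbr1 was at 82.6 and 127 FPKM in RBP-J KO and at 111 and 182 FPKM in WT, and Cbr3 at 120 and 146 FPKM in RBP-J KO and 108 and 165 FPKM in WT, both overlapping between groups.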

How the data were processed

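RNA of 4 libraries of mouse bone marrow derived macrophages, 2 RBP-J KO and 2 WT, was sequenced after TruSeq preparation, and groups and replicate numbers come from the sample titles. TopHat, Cufflinks and the mm9 build are named in the submitters' processing notes, without versions or options. The authors deposited what was taken to be FPKM, as Cufflinks writes it, although no header says so; the absolute scale is unclear and read depth unknown. In the replicate 1 libraries 22026 genes are listed and in the replicate 2 libraries 27583 transcripts, which were summed per symbol; 25 symbols turned into calendar dates were restored.

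With R 4.3.3 and limma 3.58.1, log2(FPKM + 1) was fitted with group as the only term and a variance trend, two-sided, for 11851 genes averaging at least 1 FPKM; this scale understates differences of low genes. Folds inside pairs are ratios of FPKM, and the 1.5-fold limit was applied to log2(FPKM + 1). The genes, the 7 pathway lists and the 8 marker lists were chosen with earlier results of these data known. Singly named were the 8 genes, the 2 nearest profiles of each, up to 4 members per pathway list by the smaller of both pairs' differences, and genes set by name. Other names were chosen after their values were seen. Older symbols were matched through RefSeq synonyms. Figures used matplotlib 3.10.9 under Python 3.11.15.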

Additional observations from a re-analysis of the deposited data

How the results depend on the processing

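The number of genes past an adjusted p of 0.05 in limma was 0 under each of the 13 alternatives tried, among them other pseudocounts, filters and scalings and leaving out each library. Genes at least 1.5-fold apart with 1 sign in both pairs numbered between 617 (pseudocount of 5 FPKM) and 1047 (pseudocount of 0.1 FPKM), against 887 as reported. Of the 8 genes, Cbr2 and Folr2 met this limit under all 7 alternatives run for it, and Mrc1 under all but upper quartile scaling and quantile normalization. Upper quartile scaling moved the count over all genes to 510 higher and 393 lower, against 457 and 430. The log2 differences of Cbr2 lay between -2.34 and -2.15 and those of Folr2 between -2.36 and -1.29 over 9 alternatives each. The sign of the other genes turned when single libraries were left out. It became 1.07 for Arg1 without WT replicate 1 and 0.70 for Ccl24 without RBP-J KO replicate 1. For Mgl2 it became 0.33 without WT replicate 2 and 0.31 without RBP-J KO replicate 1. The values of Mrc1, Clec10a and Il4ra stand in the report. These fits have no term for the replicate number, so the offset between replicate numbers enters the difference. Mrc1 and Mgl2 were lower in RBP-J KO inside both pairs.

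With the replicate number as a replicate block, limma again gave 0 genes past the adjusted threshold, with 1557 genes at an unadjusted p under 0.05. Libraries of the same number deviated together from their group means across genes (r = 0.64), but no label says that the numbers pair the samples.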
